A study of Rattus norvegicus with 8 samples.

Results

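Neuropeptide precursor genes encode the prohormones that neurons and neuroendocrine cells cut into short signalling peptides. The set examined here comprised 10 genes: Npy (neuropeptide Y), Nts (neurotensin), Penk (enkephalins), Sst (somatostatin), Tac1 (substance P and neurokinin A), Gal (galanin), Adcyap1 (the pituitary adenylate cyclase-activating peptide PACAP), Cck (cholecystokinin), Calca (calcitonin and its gene-related peptide CGRP) and Vip (vasoactive intestinal peptide). Members were the probe sets whose annotation gave 1 of these symbols and no other. The rule found 9 of the 10 genes among the 4736 genes with a probe set of a single symbol, and 14 of the 8799 probe sets on the array. No probe set had Nts as its single symbol, and Nts was not analysed here. Adcyap1 had 3 probe sets, Sst, Tac1 and Calca had 2 each, and the other 5 genes had 1.

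RNA from 4 induced and 4 uninduced samples of the rat line Htt14A2.5 was measured on 1 Affymetrix array each. Htt14A2.5 derives from PC12, a cell line grown from a pheochromocytoma of the rat adrenal medulla. Its cells stably carry a transgene for a truncated, mutant first exon of human huntingtin that is switched on by an inducer. The induced group received ponasterone, a steroid inducer, for 48 h, and the uninduced group is the same line, with the same transgene, titled as lacking ponasterone. The descriptions of all 8 samples mention induction, so the groups rest on the titles. All samples come from 1 line, and neither the promoter that drives the transgene nor whether the replicates were separate cultures is given in the sources used here. The p-values therefore measure only the spread between these samples, which may be technical.

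A neuropeptide is made as a prohormone, sorted into dense-core granules, cut by prohormone convertases, trimmed, often amidated at its end, and released when calcium rises in the cell. Chromaffin cells, from which PC12 descends, are known for storing such peptides beside catecholamines. Several of these genes, Sst and Vip among them, are textbook targets of the factor CREB, which binds the cyclic AMP response element (CRE).

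The deposited signals are scaled intensities without detection calls, so 38 control probe sets for sequences that the cells should not transcribe served as the reference for low signal. Of these, 23 are forward probe sets for bacterial, yeast or mouse genes that were not among the hybridization spikes, and 15 read the reverse strand of spiked or rat control genes. Their 95th percentile lay between 101.6 and 183.5 on the 8 arrays. Of all probe sets outside the controls, 38.8% exceeded that level on all 8 arrays and 42.5% on none. The markers of the labelled cell type, each read by its brightest probe set, were mixed. Chgb, Syp, Phox2a, Ngfr and Snap25 exceeded the level on all 8 arrays and Slc18a1 on 7. In contrast, Ddc, Dbh and Slc18a2 exceeded it on none and Th, the first enzyme of catecholamine synthesis, on 1. Of the 4 measured leukocyte markers and the 4 of adrenal cortex, 0 exceeded it on every array, while 2 of 6 fibroblast markers did (Col1a1 and Col3a1), and so did Pmp22, 1 of 3 glial markers.

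Judged by all 38 controls, the precursor genes of the set gave signals at the background level in both groups. Only 1 of 112 member values, 0.893%, exceeded its array's 95th percentile of the 38 controls, against 47.9% of the values of all probe sets outside the controls. That value was 174.3 for the Adcyap1 probe set X80290cds_s_at in induced replicate 3. The other 13 probe sets exceeded the level on 0 arrays. Member means over the 8 arrays ran from 6.93 to 83.2, with a median of 38.3, and all 14 were under 117, the median mean of all probe sets outside the controls. Probe sets differ in how strongly they bind their transcripts, so these levels do not rank the genes by transcript abundance.

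**Figure D1:**
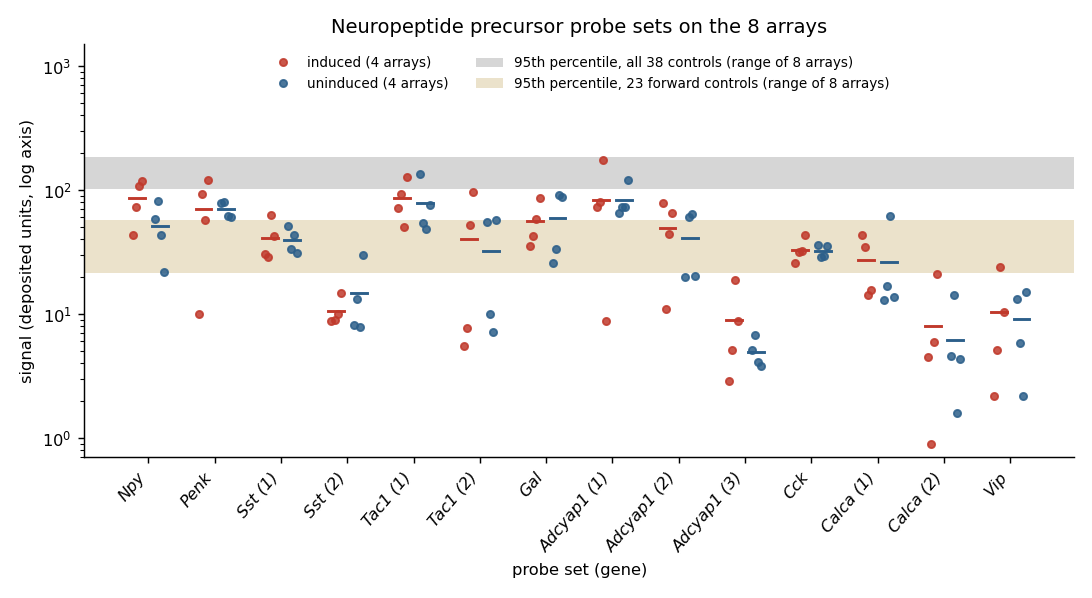
Signal of each of the 14 precursor probe sets (log axis, deposited units), with the 4 induced arrays in red left of the 4 uninduced arrays in blue and group means as horizontal bars. The grey and tan bands span the 95th percentiles of all 38 and of the 23 forward controls over the 8 arrays; only Adcyap1 (1), at 174.3 on 1 induced array, exceeds its own array's level for all 38 controls.

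This placement depended on which controls set the level. The reverse-strand controls were brighter, with a median mean signal of 45.9 and a highest of 174, against 9.86 and 73.8 for the forward controls. With the 95th percentile of the forward controls alone (21.3 to 57.5 on the 8 arrays), a level chosen after the data were seen, 53 of the 112 member values lay above it, or 47.3%, against 68.9% of the values of all probe sets outside the controls. By that lower level the members divided. The Tac1 probe set M15191_s_at exceeded it on all 8 arrays, Npy, Penk and the Adcyap1 probe set X80290cds_s_at on 7, and Gal on 6. The Vip probe set, Sst M25890_at, Adcyap1 rc_AI228407_s_at and Calca M11597_at exceeded it on 0. With no detection calls, these signals do not settle whether the transcripts of Tac1, Npy, Penk, Adcyap1 and Gal were present at low levels.

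**Figure D2:**
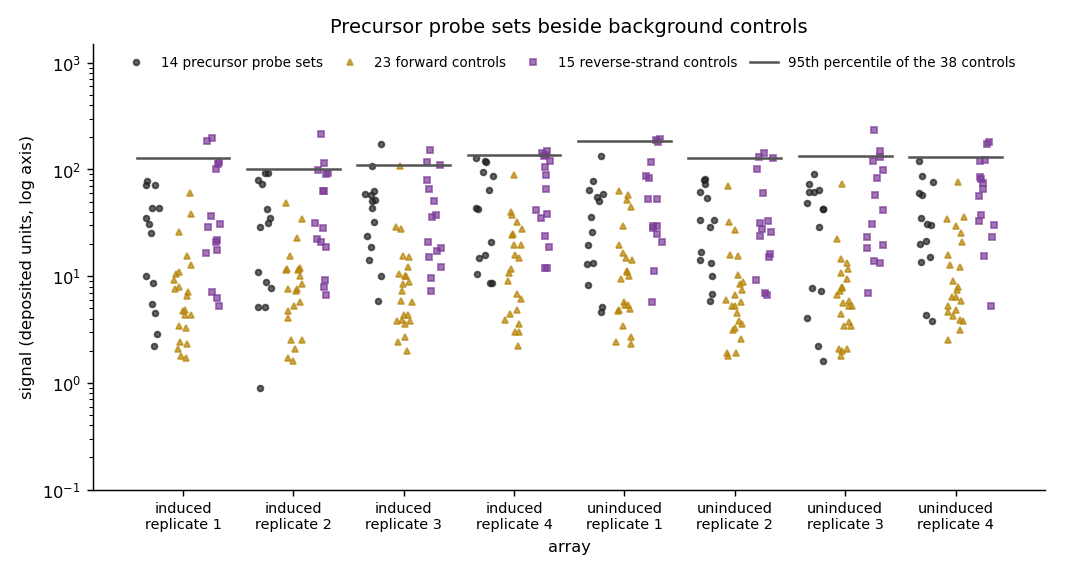
Signals of the 14 precursor probe sets (black), the 23 forward controls (gold) and the 15 reverse-strand controls (purple) on each array, on a log axis in deposited units; horizontal lines mark the 95th percentile of the 38 controls. The precursor signals lie within the range of the controls on the same array except for 1 value above it (Adcyap1 at 174.3 on induced replicate 3, where the highest control has 152.7) and 2 below it (Calca M11597_at at 0.9 on induced replicate 2 and 1.6 on uninduced replicate 3). On 7 of the 8 arrays 0 of the 14 exceed the line.

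Induction was followed by no called change in any measured gene of the set. Of the 14 probe sets, 7, for 6 genes (Npy, Penk, Sst, Tac1, Gal and Adcyap1), had a mean signal over the filter for low values (36.3, the 30th percentile) and entered the limma fit of log2(signal + 7); Cck, Calca and Vip had none. The count called at an adjusted p under 0.05 was 0 of 7, where 7.08% of all 6118 tested probe sets were called (4.1% higher and 2.97% lower in induced cells). Among the 1076 tested probe sets whose mean signal lay within the range of the 7, the share called was 0.929%. The limma adjusted p of the 7 ran from 0.434 to 0.993, and at an unadjusted p under 0.05 the count was also 0, where the share of all tested probe sets was 18%. The induced and uninduced arrays overlapped for every one of the 14, where 10.2% of all probe sets outside the controls did not overlap. The median log2 difference of the 7 was 0.02, beside -0.05 for all tested probe sets. A missed threshold does not show equal levels, and 95% intervals of the 7 differences reached as far as -1.72 and 1.64. By the level from all 38 controls, 13 probe sets stayed under background on all 8 arrays and the other on 7. By the forward controls alone, 53 of the 112 member values lay above the level. As the placement depends on the controls, the members' log2 differences cannot be read as sizes of change in transcript.

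**Figure D3:**
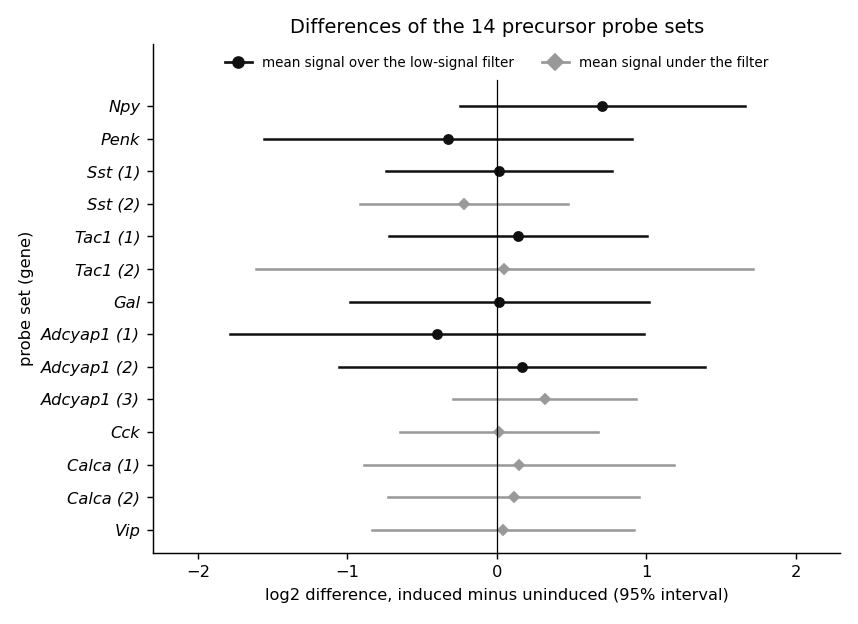
Log2 differences (induced minus uninduced) of the 14 precursor probe sets with 95% intervals, from the limma fit without the low-signal filter so that all 14 can be drawn; black circles mark the 7 over the filter and grey diamonds the 7 under it. All 14 intervals include 0.

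Among the peptides of sympathetic and chromaffin cells, Npy encodes a vasoconstrictor peptide stored with noradrenaline. Npy (M15880_at) had signals of 43.7, 72.9, 108.5 and 117.4 in induced replicates 1 to 4, against 58.3, 80.8, 43.0 and 21.6 in uninduced replicates 1 to 4. Induced replicates 3 and 4 lay above all uninduced arrays, replicates 1 and 2 among them. The means were 85.6 ± 33.9 in induced cells and 50.9 ± 25.0 in uninduced cells (SD, n = 4 each), with a log2 difference of 0.71 ± 0.43 (limma SE; adjusted p = 0.434), the lowest p of the 7. The difference ranged from 0.41 without uninduced replicate 4 to 0.97 without induced replicate 1, at a lowest adjusted p of 0.282.

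Penk encodes the precursor of the opioid peptides Met- and Leu-enkephalin. Its probe set S49491_s_at had 10, 93.4, 57.1 and 119.1 in induced replicates 1 to 4, against 78, 80, 61.2 and 60.6 in uninduced replicates 1 to 4. The induced arrays spread on both sides of the uninduced ones, which lay close together. The means were 69.9 ± 47.3 in induced cells and 69.95 ± 10.5 in uninduced cells (SD, n = 4 each), while the log2 difference was -0.33 ± 0.54 (limma adjusted p = 0.843). Induced replicate 1 set that sign: without it the difference was 0.29.

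Gal encodes galanin, a peptide of sensory and neuroendocrine cells. Its probe set J03624_at had 35.0, 42.8, 58.4 and 86.6 in induced replicates 1 to 4, against 25.7, 33.5, 90.9 and 87.3 in uninduced replicates 1 to 4. Low and high arrays occurred in both groups, with a log2 difference of 0.02 ± 0.45 (limma adjusted p = 0.993).

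The tachykinin gene Tac1 was read by a pair of probe sets at different levels. M15191_s_at had 71.1, 92.4, 50.2 and 127.4 in induced replicates 1 to 4, against 134.5, 54.2, 48.8 and 76.0 in uninduced replicates 1 to 4, and differed by 0.14 ± 0.38 (limma adjusted p = 0.914). X56306_s_at had 5.5, 7.7, 52.0 and 95.3 in induced replicates 1 to 4, against 55.3, 10, 7.2 and 57.1 in uninduced replicates 1 to 4. Each group thus held a pair of arrays near 10 or lower and a pair at 52 or higher. The mean of X56306_s_at, 36.26, lay just under the filter at 36.3. In the fit without the filter it differed by 0.05 ± 0.75, the largest standard error among the members.

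PACAP and VIP are related peptides of one family that raise cyclic AMP through shared receptors. The Adcyap1 probe set X80290cds_s_at had 72.3, 79.2, 174.3 and 8.7 in induced replicates 1 to 4, against 64.9, 72.9, 73.2 and 120.4 in uninduced replicates 1 to 4. The highest and the lowest value were both from induced arrays, and the log2 difference was -0.40 ± 0.61 (limma adjusted p = 0.825). It was 0.30 without induced replicate 4 and -0.88 without induced replicate 3. The second probe set, M63006_at, had 77.9, 11, 43.9 and 64.7 in induced replicates 1 to 4, against 19.7, 60.9, 64.0 and 20.1 in uninduced replicates 1 to 4. It did not follow the first across the arrays, and its difference was 0.17 ± 0.57 (limma adjusted p = 0.931). The third, rc_AI228407_s_at, stayed between 2.9 and 18.9. The highest mean of these Adcyap1 probe sets was 12 times the lowest. For Vip (X02341cds_at) the signals were 2.2, 5.1, 23.8 and 10.4 in induced replicates 1 to 4, against 13.3, 5.8, 2.2 and 15.1 in uninduced replicates 1 to 4, under the forward-control level on every array.

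Somatostatin, from Sst, inhibits hormone release. Its probe set K02248cds_s_at had 30.7, 29.0, 62.3 and 42.5 in induced replicates 1 to 4, against 50.8, 33.7, 43.0 and 30.9 in uninduced replicates 1 to 4, and differed by 0.02 ± 0.39 (limma adjusted p = 0.992). The other Sst probe set, M25890_at, was lower, from 8.7 to 14.8 in induced cells and from 7.8 to 30.1 in uninduced cells. Cck encodes a peptide of gut endocrine cells and brain neurons, and its probe set X01032_at ran from 25.6 to 43.2 in induced cells and from 28.6 to 35.8 in uninduced cells. Calca, whose transcript is spliced to calcitonin or CGRP, had 14.3 to 43.7 in induced cells and 12.9 to 61.7 in uninduced cells with L00111unknown_S536_at. With M11597_at it had 0.9 to 20.9 in induced cells and 1.6 to 14.2 in uninduced cells. In the fit without the filter, the 7 probe sets that it had left out differed by -0.22 to 0.32, with adjusted p from 0.724 to 0.995.

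Correlations between members across the arrays were of either sign and, with only 8 arrays, imprecise. Over the 21 pairs of the 7 tested probe sets, Pearson's r of the log2 signals over the 8 arrays had a median of 0.07 and ran from -0.62 (Tac1 M15191_s_at with Adcyap1 X80290cds_s_at) to 0.48 (Npy with Sst K02248cds_s_at). Both probe sets of a pair come from the same 8 arrays and share their scaling. The summed signal of the 14 probe sets was 434 to 775 in the induced arrays and 512 to 576 in the uninduced ones. The lowest and the highest sum came from induced replicates 1 and 4, the arrays with the lowest and the highest median signal of all probe sets outside the controls (97.9 and 135.5). The part of overall array brightness in the members' values was not tested. As no member passed the test, no genes of like pattern were sought.

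Promoter sequence is shown for Sst and Vip, the members best known as CREB targets, and for Vgf, a precursor gene of the same kind of cell that rose. RefSeq windows of 300 bases (250 before to 50 after the annotated start, build GRCr8) were found for 8 of the 10 genes. They were searched on both strands for TGACGTCA, the full CRE, for its core TGACG, which the full CRE contains, and for the AP-1 site TGACTCA. The stretches run 5′ to 3′ on the gene's strand, with the matched CRE or core in capitals.
Sst, chr11:90461512-90461591, plus strand: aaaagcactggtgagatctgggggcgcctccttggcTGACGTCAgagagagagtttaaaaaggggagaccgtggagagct
Vip, chr1:44470345-44470424, plus strand: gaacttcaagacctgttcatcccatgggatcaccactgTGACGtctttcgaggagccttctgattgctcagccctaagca
Vgf, chr12:25277067-25277146, minus strand: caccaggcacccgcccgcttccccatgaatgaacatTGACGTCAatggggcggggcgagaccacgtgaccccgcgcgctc
The full CRE was in 1 of the 8 windows (Sst, from base 3 of the transcript as annotated), and in 1.83% of all 33469 windows. The core was in 6 of the 8 (Nts, Sst, Tac1, Gal, Calca and Vip) and in 21.2% of all windows. In Vip it began 97 bases before the start, and in Vgf the full CRE began 90 bases before it. The secretin gene Sct, which also rose, was searched too and gave no match, but whether it had a window was not recorded. A link between these motifs and a rise was not tested. The AP-1 site was in 1 of the 8 (Nts) and in 4.63% of all windows. A match in these windows is a description of the letters, not of binding.

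Transcription factors were measured on the same arrays, from a list of 18 that holds CRE and AP-1 proteins and also Rest and Nr3c1, the glucocorticoid receptor, which bind other elements. Of these 12 were tested, each gene by its brightest probe set. Of the 12, 4 rose and 0 fell (4.1% of all tested probe sets rose), and the median log2 difference was 0.32. The list was chosen with earlier results of these data known, so the count beside that share is no test. Those called were Jun (log2 difference 2.22), Atf3 (1.67), Jund (0.71 ± 0.19, limma adjusted p = 0.0368) and Fosl1. Fosl1 had 774 to 999 in induced cells and 36.7 to 118.9 in uninduced cells, where all 4 arrays were under background. Its limma adjusted p was 2.1e-05 in the fit of the deposited signals. When background stood in for the lower signals, Fosl1 was at least 6.02-fold higher in induced cells. Jund kept its call in 9 of 19 alternatives. It lost it when induced replicate 2, 3 or 4 or uninduced replicate 1, 2 or 4 was dropped (limma adjusted p from 0.0696 to 0.112) and when both arrays numbered 2 were (0.196). Cebpb (0.40, adjusted p = 0.0511) and Nr3c1 (-0.76, adjusted p = 0.176, at signals under background on all 8 arrays) had the lowest p of the others. Creb1, the gene of CREB, was not called (-0.14, limma adjusted p = 0.872) and exceeded background on 0 arrays. Sst and Vip, with a CRE or its core in the stretches shown, also exceeded background on 0 arrays. Against the lower forward-control level (21.3 to 57.5), Creb1 stood higher on all 8 arrays, with signals of 66.7 to 122.5. Sst K02248cds_s_at exceeded that level on 4 arrays, and Sst M25890_at and Vip on 0. A link between the transcripts of these factors and the signals of Sst and Vip was not tested.

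Precursors outside the 10 genes were not uniformly low. Of a list of 49 further precursors and granins, 34 had a probe set. By the brightest probe set of each gene, 12 of these exceeded background on all 8 arrays and 15 on none. Read in the same way, 0 of the 9 member genes exceeded it on all 8 arrays and 8 on none. Other probe sets of a gene could be lower: Ghrh U41183_at and Avp M64785_at exceeded background on 0 arrays, though both genes are among the 12. Of the 26 tested, 2 rose and 0 fell (4.1% of all tested probe sets rose and 2.97% fell), at a median log2 difference of -0.02. Vgf, whose protein is cut into several secreted peptides, had 8331 to 10044 in induced cells and 1184 to 1489 in uninduced cells. Sct, the secretin precursor, had 451, 542, 447 and 394 in induced replicates 1 to 4, against 288, 240, 276 and 187 in uninduced replicates 1 to 4. All its induced arrays lay above all its uninduced ones, and it rose by 0.88 ± 0.17 on the log2 scale (limma adjusted p = 0.00759). Dropping any single array kept that call, and dropping both arrays numbered 2, whose source label is worded differently, ended it (limma adjusted p = 0.0872). Nmu (neuromedin U) differed by -0.48 ± 0.18 (limma adjusted p = 0.164) and Nppb (B-type natriuretic peptide) by 0.94 ± 0.41 at signals under background (adjusted p = 0.25).

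**Figure D4:**
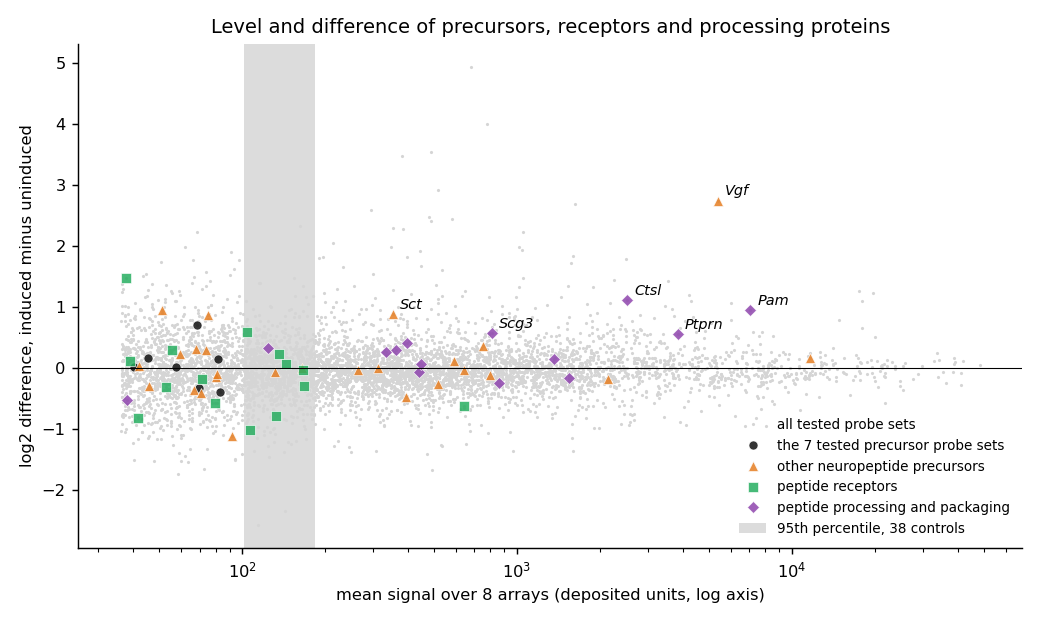
Log2 difference (induced minus uninduced) against the mean signal over 8 arrays (log axis, deposited units) for the 7 tested precursor probe sets (black), other precursors, peptide receptors, processing and packaging genes (1 probe set a gene) and all tested probe sets (light grey). The 7 lie left of the grey band of background levels, with differences from -0.40 to 0.71, while the called genes Vgf, Sct, Pam, Ctsl, Ptprn and Scg3 lie to its right.

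By the 95th percentile of the 38 controls, most measured receptors for the members' peptides were under background on every array. Of 32 listed, 25 had a probe set. By the brightest of each gene, 1 (Galr2, a galanin receptor) exceeded background on all 8 arrays and 15 on none. The rest exceeded it on some arrays, among them Sstr4 on 7 and Vipr1 on 6. The lower forward-control level was not applied to the receptors. Of 15 tested, 0 were called, with 7.08% called among all tested probe sets; the median log2 difference was -0.19. Galr2 averaged 519 in induced cells and 768 in uninduced cells (log2 difference -0.62 ± 0.27, limma adjusted p = 0.246). The lowest p was that of Sstr5, a somatostatin receptor, with 35.9, 65.8, 58.9 and 74.0 in induced replicates 1 to 4, against 20.7, 12.4, 8.1 and 27.1 in uninduced replicates 1 to 4. Its groups did not overlap, at signals under background on all 8 arrays, and it was not called (log2 difference 1.48 ± 0.45, limma adjusted p = 0.0826). Npy1r, a receptor for neuropeptide Y, averaged 96.5 ± 32.3 in induced cells and 169 ± 37.6 in uninduced cells (SD, n = 4 each; log2 difference -0.79 ± 0.28, limma adjusted p = 0.136).

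Genes that process and store peptides were mixed in level. Of 24 listed processing and packaging genes 19 had a probe set. By the brightest of each gene, 12 of these exceeded background on all 8 arrays and 6 on none. Among the 12 were Cpe, the carboxypeptidase that trims prohormones, and Pam, which amidates peptides. Of 14 tested, 4 rose and 0 fell (4.1% of all tested probe sets rose and 2.97% fell), at a median log2 difference of 0.27. These were Ctsl, a lysosomal and granule protease (1.11 ± 0.10, limma adjusted p = 2.8e-05; its other probe set 0.45, adjusted p = 0.0643), Pam (0.95, with 2 of its 4 tested probe sets called), the granule membrane protein Ptprn (0.55) and the granin Scg3 (0.57). Ptprn and Scg3 were not called with median centring of the arrays (adjusted p = 0.113 and 0.137), with no intensity trend (0.0821 and 0.0721) or when both arrays numbered 2 were dropped (0.124 and 0.173). Scg3 also lost its call when induced replicate 1 or 2 or uninduced replicate 1, 2 or 3 was dropped (adjusted p from 0.0521 to 0.0699). Cadps, which primes granules for release, differed by 0.41 (limma adjusted p = 0.0885) and Scg5, the chaperone of the convertase Pcsk2, by -0.24 (adjusted p = 0.274). Pcsk2 itself exceeded background on 0 arrays, with 19.1 to 34.6 in induced cells and 22.9 to 127.6 in uninduced cells (M83746_at). Cell type markers moved on the same arrays. Of 7 tested chromaffin markers Ngfr rose (0.45; its other probe set -0.33, not called) and Phox2a (-0.70) and Syp (-0.47) fell, and Pmp22, 1 of 3 tested glial markers, rose (0.81, limma adjusted p = 0.0161; its other probe set -0.37, not called). Of 5 tested fibroblast markers 0 were called by their brightest probe set, but 2 further probe sets of Col1a1 rose (1.05 and 0.71). The summed signal was 22384 to 24066 in induced cells and 23031 to 26433 in uninduced cells for the chromaffin markers, and 558 to 754 in induced cells and 394 to 587 in uninduced cells for the glial ones. For the fibroblast markers it was 1552 to 1920 in induced cells and 1406 to 1784 in uninduced cells. Their part in the rises of the processing genes was not tested.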

How the data were processed

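The authors deposited 1 linear intensity per probe set and array. Trimmed means of 500.8 to 500.9 on the 8 arrays (2% off each end) show a common scaling; no source used here names the program or the background steps. The platform annotation gave 1 symbol for 7018 of 8799 probe sets, and all 9 measured member genes matched the GRCr8 reference list by identifier. The members and gene lists were chosen with earlier results of these data known, so a list's count beside the share of all probe sets is no test. Named were all members, every called gene of each list and the 2 others with the lowest p. The brightest probe set stood for a listed gene. Cell type markers, Galr2, Cpe, Pcsk2 and Creb1 were added. The 59 AFFX controls and the 2622 others with a mean signal under the 30th percentile (36.3) were left out. On log2(signal + 7), limma 3.58.1 in R 4.3.3 (lmFit, eBayes with an intensity trend; 6 residual and 5.78 prior degrees of freedom) fitted 6118 probe sets, with Benjamini-Hochberg adjustment and a threshold of 0.05. On simulated arrays of 6118 probe sets it found 59% of true log2 changes of 1 and 87% of those of 2, and 10 of 156 calls were false. The changed probe sets were drawn at random from all of these, so the shares do not hold for the members' low signals. The limma standard errors of the 7 tested members ran from 0.377 to 0.605. The number of arrays limits precision. Python 3.11.15 made the summaries. Same-numbered arrays of the groups correlated in their deviations from the group means by -0.142 to 0.191, so the numbers were not taken as pairs.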

Additional observations from a re-analysis of the deposited data

Results flagged for a closer look

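Among the 28 sets of 4 arrays formed by the 14 precursor probe sets in the 2 groups, 2 held an array far from the other 3, where chance alone gives about 1 in 20. Uninduced replicate 4 had 120.4 for the Adcyap1 probe set X80290cds_s_at, against 64.9 to 73.2 on the other uninduced arrays. Uninduced replicate 3 had 61.7 for the Calca probe set L00111unknown_S536_at, against 12.9 to 16.9 on the other uninduced arrays. Both values lie under the 95th percentile of the 38 controls on their arrays.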

How the results depend on the processing

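In each of the 18 alternatives that tested members 0 were called (lowest adjusted p 0.282); a filter at the 50th percentile left no member to test. The count of calls over all probe sets, 433, was 230 with median centring (167 higher, 63 lower), 279 with no intensity trend, 221 without replicate 2 of both groups, 369 with the replicate number as a block, and 314 to 411 when 1 array was left out. The block changed no call of a member and ended those of Scg3 and Jund (limma adjusted p = 0.0676 and 0.0594). Jund was also lost with no filter (0.0643) and with signals raised to background (0.0506). Only the arrays numbered 4 correlated best with the one of their own number in the other group (r = 0.191). Of 126 recomputed member differences, 24 had the opposite sign to the main value, none of them called; the cause was not tested. With every signal under background raised to background, Npy, Sst, Tac1, Gal and the Adcyap1 probe set M63006_at each differed by -0.25, which is the difference in background level itself. With a constant of 50 Gal was -0.017, and without replicate 2 of both groups Tac1 was -0.042 and Gal -0.077. When 1 array was left out the log2 differences ranged from -0.68 to 0.29 for Penk, -0.18 to 0.14 for Sst, -0.061 to 0.42 for Tac1, -0.27 to 0.26 for Gal, -0.88 to 0.30 for Adcyap1 X80290cds_s_at and -0.10 to 0.65 for Adcyap1 M63006_at. Against other control levels, chosen after the data were seen, the member values above background (1 of 112) numbered 9 with the 90th percentile of all 38 controls, 53 with the 95th percentile of the forward controls, and 1 with that of the reverse-strand controls or with the highest control.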
